A study of Arabidopsis thaliana with 16 samples.

Results

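A small set of Arabidopsis genes stood far apart between seeds of the *dog1-3* mutant and wild-type seeds both with and without salt, 6 of them higher and 16 lower in the mutant. The 22 genes were chosen by their genotype difference alone: in each treatment the mean of log2(CPM + 1) in *dog1-3* had to lie more than 2 above the mean in wild type, or more than 2 below it, with the same sign in both treatments. CPM are counts scaled to the size of the library, here corrected with the trimmed mean of M values (TMM). Of 37336 loci in the files, 12237 had a mean of at least 10 counts over the 16 libraries, without *DOG1* itself, and the rule kept 0.049% of these as higher and 0.131% as lower. The size of the genotype difference is therefore what defined the set, and it is given below as a description without a test.

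The libraries were made by 3'RNA-seq, which counts reads from the polyadenylated ends of transcripts, in 4 groups of 4: *dog1-3* seeds on 100 mM NaCl, wild-type seeds (Col-0, called WT) on 100 mM NaCl, *dog1-3* seeds on medium without NaCl (labelled control, called mock) and WT seeds in mock. The seeds of all groups were plated 1 day after harvest on 1/2 MS medium and kept for 72 h at 4°C before collection. *dog1-3* is a T-DNA insertion in *DOG1* carried by 1 line (SALK_000867), so that the allele cannot be told apart from anything else that separates this line from WT. Reactions of the NaCl and of the mock seeds were pooled separately, so each genotype comparison lies within a pool while pool and treatment cannot be told apart in the comparison of NaCl with mock.

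*DOG1* is a main regulator of primary seed dormancy in Arabidopsis, made during seed maturation and acting together with abscisic acid signalling. When a seed germinates it takes up water, its reserves and stored sugars are used, and its cell walls are loosened before the radicle emerges. Expansins and xyloglucan endotransglucosylases act on those walls, galactinol and raffinose are among the sugars stored in dry seeds, and abscisic acid, salt and cold share several response genes in seeds.

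Total counts ranged from 1416354 to 3635844 per library, and 1 count was worth 0.244 to 0.772 CPM. *DOG1* (AT5G45830) was measured at 18.7 ± 3.06 CPM in *dog1-3* NaCl and 143 ± 23.4 CPM in WT NaCl, and at 15.5 ± 2.36 CPM in *dog1-3* mock and 80.7 ± 16.3 CPM in WT mock (SD, n = 4 each), in the direction of the labels. A list of 12 seed genes, called reserve genes here, held cruciferins, 2S albumins, oleosins, late embryogenesis proteins and the peroxiredoxin *PER1*. The summed level of this list was 102373 to 132053 CPM in *dog1-3* NaCl, against 51009 to 75157 CPM in WT NaCl, and 82241 to 95804 CPM in *dog1-3* mock, against 35984 to 60967 CPM in WT mock. That of 7 photosynthesis genes was 812 to 988 CPM in *dog1-3* NaCl, against 551 to 630.2 CPM in WT NaCl, and 476 to 559 CPM in *dog1-3* mock, against 372 to 452 CPM in WT mock. Both lists thus stood apart between the genotypes within each treatment, and between the treatments except for the reserve genes in WT. Of the 7 photosynthesis genes, 1 or 2 were at 0 in all libraries of a group. The 2 endosperm genes were higher in *dog1-3* mock (25636 to 34221 CPM, against 15073 to 21481 CPM in WT mock) and overlapped in NaCl. The 3 seed coat genes were at or near 0 throughout, with at most 2.74 CPM in any library. The part of these differences in the results below was not tested, and in bulk seeds fewer cells of a type and less RNA per cell cannot be told apart.

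The member with the largest difference, AT1G64795, is annotated as a protein-coding gene of unknown function that lies wholly inside the annotated span of *ILA* (AT1G64790), on the opposite strand. Its 270 bases are shown because the values below turn on which gene the reads come from. The sequence is from the TAIR10.1 genome, 5′ to 3′ on the plus strand, and capitals mark the 142 bases that lie opposite an exon of *ILA*. That exon is annotated in a single *ILA* transcript. The nearby exons of other *ILA* transcripts reach only to positions 24082093 and 24082183, short of AT1G64795.
AT1G64795, chr1:24082579-24082848, plus strand: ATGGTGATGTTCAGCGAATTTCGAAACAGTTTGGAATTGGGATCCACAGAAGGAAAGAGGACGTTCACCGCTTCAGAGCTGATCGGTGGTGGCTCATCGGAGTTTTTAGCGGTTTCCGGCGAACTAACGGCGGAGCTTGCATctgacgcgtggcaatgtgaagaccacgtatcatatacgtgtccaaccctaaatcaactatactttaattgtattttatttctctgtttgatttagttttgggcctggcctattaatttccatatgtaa

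Windows of 250 bases upstream of the annotated start were read from the same genome for 12172 of the kept loci. They were searched on both strands for CCGAC (the core of the dehydration-responsive element, read as GTCGG on the other strand), ACGTG (the core of the abscisic acid response element), CACGTG (the G-box, which holds ACGTG on both strands), CATGCA (the RY element), AAACCCTA (the telo-box) and GGCCCA (site II). CCGAC stood in 3 of 6 windows of the higher members and 0 of 16 of the lower members, against 14.2% of all windows. ACGTG stood in 2 of 6 and 6 of 16, against 23.9% of all windows, and CACGTG in 1 of 6 and 1 of 16, against 8.46%. CATGCA was found in 1 of 6 and 1 of 16 windows (6.55% of all), AAACCCTA in none of either sign (4.17% of all), and GGCCCA in 0 of 6 and 1 of 16 (20.3% of all). These are counts of letters in a window of fixed length, in sets too small to set against the share of all windows. The windows of 3 higher members and 2 lower members with such matches are printed 5′ to 3′ on the strand of the gene, ending at the base before the start, with the matches to CCGAC and the matches to ACGTG, on either strand, in capitals.
GolS2, chr1:21207287-21207536, plus strand: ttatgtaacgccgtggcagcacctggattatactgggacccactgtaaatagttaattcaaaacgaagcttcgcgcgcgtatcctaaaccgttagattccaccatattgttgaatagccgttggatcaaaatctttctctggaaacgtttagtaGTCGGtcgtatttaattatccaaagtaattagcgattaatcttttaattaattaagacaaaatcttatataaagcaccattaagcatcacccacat
COR413-PM1, chr2:6949601-6949850, plus strand: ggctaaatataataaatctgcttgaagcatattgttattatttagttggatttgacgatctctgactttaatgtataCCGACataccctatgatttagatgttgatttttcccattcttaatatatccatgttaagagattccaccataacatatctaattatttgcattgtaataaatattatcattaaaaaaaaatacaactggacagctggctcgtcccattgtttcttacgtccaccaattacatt
CYP709B2, chr2:19291633-19291882, minus strand: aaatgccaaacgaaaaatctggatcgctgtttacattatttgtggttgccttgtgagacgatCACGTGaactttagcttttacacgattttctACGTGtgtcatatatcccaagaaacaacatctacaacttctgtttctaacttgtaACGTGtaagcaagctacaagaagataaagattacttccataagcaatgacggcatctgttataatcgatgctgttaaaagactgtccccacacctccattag
DIN10, chr5:6833314-6833563, plus strand: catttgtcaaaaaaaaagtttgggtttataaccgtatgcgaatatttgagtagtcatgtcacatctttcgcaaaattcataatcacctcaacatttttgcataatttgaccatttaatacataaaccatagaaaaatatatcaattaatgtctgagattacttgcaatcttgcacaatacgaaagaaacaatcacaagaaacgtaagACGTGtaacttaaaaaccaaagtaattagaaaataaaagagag
CYP71B2, chr1:4458752-4459001, plus strand: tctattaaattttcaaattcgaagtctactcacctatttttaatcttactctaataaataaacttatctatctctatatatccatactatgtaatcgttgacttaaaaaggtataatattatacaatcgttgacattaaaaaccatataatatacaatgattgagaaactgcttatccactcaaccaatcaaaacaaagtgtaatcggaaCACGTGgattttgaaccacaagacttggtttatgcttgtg

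In *GolS2* the match lies 96 bases before the start and in *COR413-PM1* 173 bases before it. The window of AT1G64795 also held a CCGAC match, 215 bases before its annotated start, inside *ILA*. *CYP709B2* had 4 ACGTG matches, of which the pair that forms the G-box lies 188 and 187 bases before the start. The match of *DIN10* lies 43 bases before the start, and the G-box of *CYP71B2* gives matches at 40 and 39 bases.

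In NaCl alone 0.0899% of kept loci passed the limit on the higher side and 0.245% on the lower side, and in mock alone 0.139% and 0.196%. Among the 6 higher members, all *dog1-3* libraries lay above all WT libraries in both treatments in 6 of 6, a pattern seen in 9.78% of kept loci (14.3% in NaCl and 15.8% in mock) and close to what the rule demands. Their mean CPM was 4.10 to 49.3 times higher in *dog1-3* in NaCl and 4.85 to 19.3 times higher in mock.

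**Figure D1:**
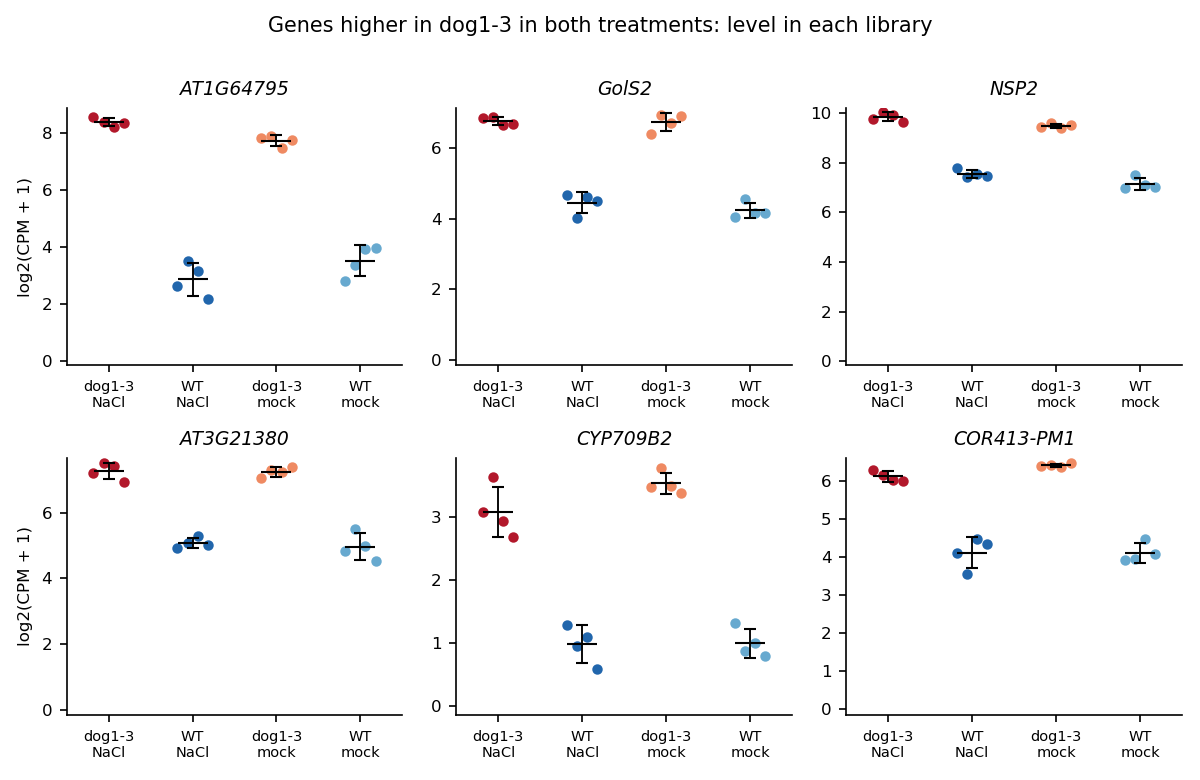
Level as log2(CPM + 1) of the 6 members higher in *dog1-3*, 1 panel per gene, with 1 point per library (replicates 1 to 4 from left to right) and bars for the mean ± SD of each group of 4. In each panel both *dog1-3* groups lie above both WT groups, from AT1G64795 (295 to 373 CPM in *dog1-3* NaCl, against 3.46 to 10.2 CPM in WT NaCl) down to *CYP709B2* (5.40 to 11.3 CPM, against 0.494 to 1.43 CPM).

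AT1G64795 had 373, 330.5, 295 and 324 CPM in the *dog1-3* NaCl libraries, against 5.24, 10.2, 7.87 and 3.46 CPM in WT NaCl. It had 224, 232, 173 and 213 CPM in *dog1-3* mock, against 5.96, 9.24, 14.1 and 14.4 CPM in WT mock. Every *dog1-3* library was thus far above every WT library of its treatment, and the *dog1-3* NaCl libraries also lay above the *dog1-3* mock libraries. The difference on the log2(CPM + 1) scale was 5.51 in NaCl and 4.21 in mock. *ILA*, a gene on the other strand that encodes a HEAT-repeat protein, had 75.7, 57.2, 58.7 and 67.9 CPM in the *dog1-3* NaCl libraries, against 72.0, 77.3, 49.5 and 73.5 CPM in WT NaCl. It had 49.6, 47.7, 47.2 and 36.4 CPM in *dog1-3* mock, against 52.9, 60.9, 56.6 and 49.6 CPM in WT mock. The *ILA* libraries of the 2 genotypes overlapped in NaCl, and in mock only where a library of each had 49.6 CPM. Whether the counting used the strand is not stated in the sources used here, so reads from AT1G64795 and from an antisense or *ILA*-derived RNA cannot be told apart.

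*GolS2* (AT1G56600) encodes a galactinol synthase, which makes the galactosyl donor for raffinose. It had 114, 116, 101 and 103 CPM in the *dog1-3* NaCl libraries, against 24.8, 15.4, 23.6 and 21.7 CPM in WT NaCl. In the other treatment it had 83.4, 123, 105 and 119 CPM in *dog1-3* mock, against 15.6, 22.6, 16.8 and 17.1 CPM in WT mock. The lowest *dog1-3* library, at 83.4 CPM, was far above the highest WT library, at 24.8 CPM, with differences of 2.31 in NaCl and 2.51 in mock. *COR413-PM1* (AT2G15970) encodes a cold-regulated protein of the plasma membrane. It had 78.0, 71.2, 64.2 and 63.3 CPM in the *dog1-3* NaCl libraries, against 16.2, 10.7, 21.4 and 19.2 CPM in WT NaCl. It had 82.8, 85.0, 82.4 and 87.9 CPM in *dog1-3* mock, against 14.1, 14.4, 21.3 and 16.1 CPM in WT mock. The genotypes were again apart in both treatments, by 2.01 in NaCl and 2.31 in mock, and within *dog1-3* the NaCl libraries were all below the mock libraries.

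*NSP2* (AT2G33070) encodes a nitrile specifier protein, which directs the breakdown of glucosinolates towards nitriles. It had 862, 1052, 968 and 791 CPM in the *dog1-3* NaCl libraries, against 217, 168, 187 and 174 CPM in WT NaCl. It had 680.2, 761, 665 and 724 CPM in *dog1-3* mock, against 124, 178, 137 and 128 CPM in WT mock. Within *dog1-3* every NaCl library was above every mock library, and the genotypes differed by 2.29 in NaCl and 2.33 in mock. AT3G21380 encodes a member of the mannose-binding lectin superfamily. It had 145, 180.2, 171 and 122 CPM in the *dog1-3* NaCl libraries, against 29.6, 32.6, 37.7 and 31.6 CPM in WT NaCl. It had 131, 157, 148 and 166 CPM in *dog1-3* mock, against 27.5, 44.0, 30.6 and 22.0 CPM in WT mock. NaCl and mock libraries overlapped within each genotype, while the genotypes differed by 2.19 in NaCl and 2.28 in mock.

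*CYP709B2* (AT2G46950), a cytochrome P450, was the member with the fewest counts, on average 10.2 per library. It had 7.39, 11.3, 6.58 and 5.40 CPM in the *dog1-3* NaCl libraries, against 1.43, 0.932, 1.12 and 0.494 CPM in WT NaCl. It had 10.0, 12.7, 10.2 and 9.36 CPM in *dog1-3* mock, against 1.49, 0.816, 0.988 and 0.733 CPM in WT mock. The WT values correspond to a few counts per library, so that its differences of 2.10 in NaCl and 2.53 in mock depend on the 1 added to each CPM.

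In the 16 lower members all *dog1-3* libraries lay below all WT libraries in both treatments in 16 of 16, against 8.56% of kept loci (12.9% in NaCl and 16.7% in mock), which again repeats the rule. Their mean CPM was 4.78 to 12.1 times lower in *dog1-3* in NaCl and 4.33 to 9.25 times lower in mock. They are given below in order of their roles.

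**Figure D2:**
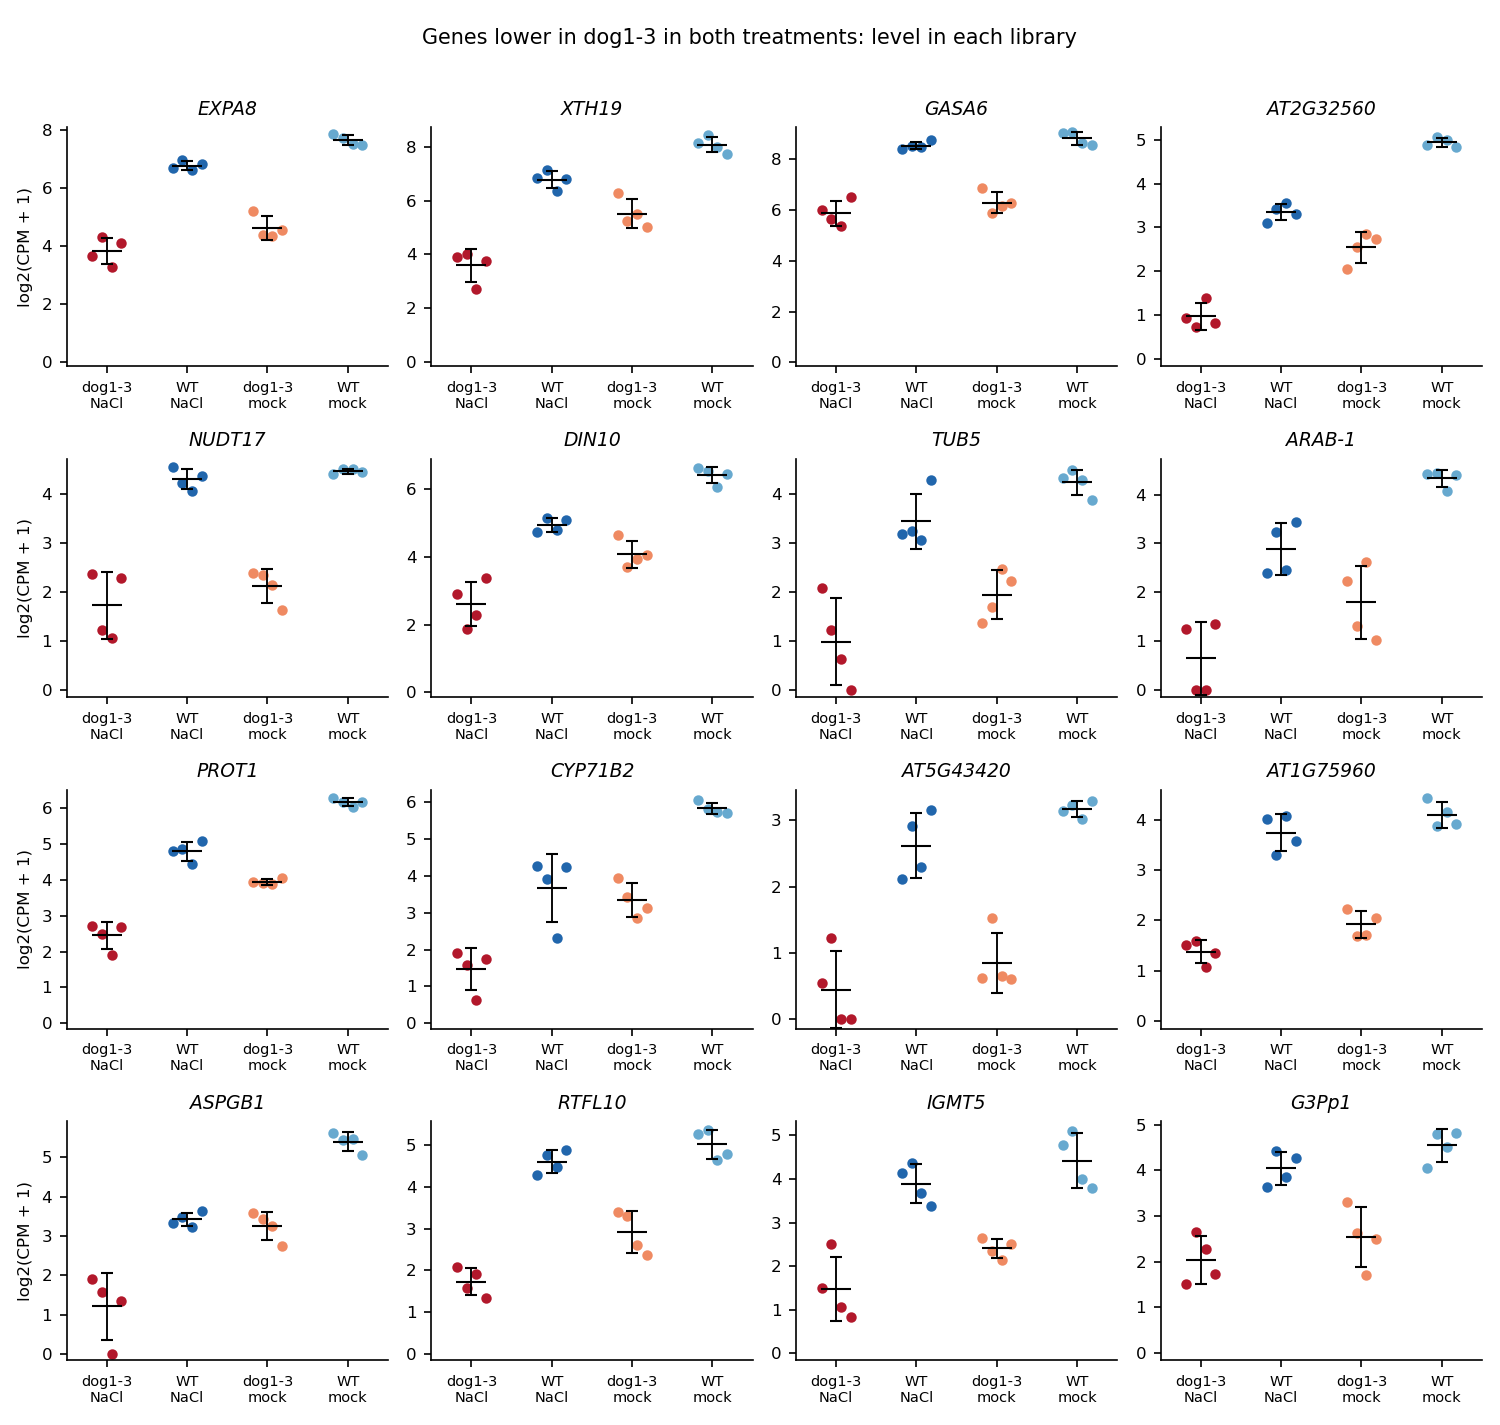
Level as log2(CPM + 1) of the 16 members lower in *dog1-3*, 1 panel per gene, with 1 point per library (replicates 1 to 4 from left to right) and bars for the mean ± SD of each group of 4. In each panel *dog1-3* lies below WT within a treatment, as in *EXPA8* (8.78 to 18.6 CPM in *dog1-3* NaCl, against 96.7 to 123 CPM in WT NaCl), and 6 values in 4 of the genes are 0 CPM.

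*EXPA8* (AT2G40610) encodes an alpha-expansin, a protein that loosens cell walls. It had 11.5, 18.6, 8.78 and 16.2 CPM in the *dog1-3* NaCl libraries, against 102, 123, 96.7 and 113 CPM in WT NaCl. It had 36.4, 19.8, 19.3 and 22.4 CPM in *dog1-3* mock, against 233, 213, 184 and 178 CPM in WT mock. NaCl was below mock in every library of both genotypes, and *dog1-3* mock was still below WT NaCl. The differences were -2.94 in NaCl and -3.03 in mock, the largest of the lower members in mock. *XTH19* (AT4G30290) encodes a xyloglucan endotransglucosylase/hydrolase, which cuts and rejoins wall xyloglucan. It had 13.8, 15.3, 5.48 and 12.3 CPM in the *dog1-3* NaCl libraries, against 112, 139.7, 81.0 and 109.6 CPM in WT NaCl. It had 76.0, 36.5, 43.8 and 31.7 CPM in *dog1-3* mock, against 280.3, 345, 255 and 213 CPM in WT mock. The 4 groups did not overlap, with *dog1-3* NaCl lowest and WT mock highest, and the differences were -3.19 in NaCl and -2.57 in mock.

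*GASA6* (AT1G74670) encodes a gibberellin-regulated peptide that acts in seed germination. It had 62.3, 48.5, 40.0 and 91.1 CPM in the *dog1-3* NaCl libraries, against 339, 371, 356 and 430.4 CPM in WT NaCl. It had 116, 58.2, 69.9 and 76.5 CPM in *dog1-3* mock, against 520.4, 534, 399.6 and 382 CPM in WT mock. The treatments overlapped within each genotype and the genotypes did not, with differences of -2.67 in NaCl and -2.54 in mock. *TUB5* (AT1G20010), a beta-tubulin, averaged 1.28 ± 1.41 CPM in *dog1-3* NaCl and 10.5 ± 5.18 CPM in WT NaCl, and 3.00 ± 1.34 CPM in *dog1-3* mock and 18.0 ± 3.16 CPM in WT mock (SD, n = 4 each). *RTFL10* (AT3G14362), of a family of small peptides that affect organ shape, averaged 2.38 ± 0.754 CPM in *dog1-3* NaCl and 23.7 ± 4.53 CPM in WT NaCl, and 6.93 ± 2.68 CPM in *dog1-3* mock and 32.3 ± 7.96 CPM in WT mock (SD, n = 4 each). Of the 740 bases of *RTFL10*, 598 lie opposite the kept locus AT3G02935, so that its reads also depend on the use of strand.

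Other lower members act in sugar, nitrogen and phosphate metabolism. *DIN10* (AT5G20250) encodes a protein of the raffinose synthase family whose gene is known to be dark-inducible. It had 6.46, 2.66, 3.84 and 9.26 CPM in the *dog1-3* NaCl libraries, against 25.7, 34.0, 26.4 and 32.6 CPM in WT NaCl. It had 23.7, 11.9, 14.2 and 15.6 CPM in *dog1-3* mock, against 96.8, 91.9, 65.5 and 85.2 CPM in WT mock. The 4 groups were apart from each other, *dog1-3* NaCl being lowest, and the genotypes differed by -2.33 in both treatments. *ASPGB1* (AT3G16150), an asparaginase that releases ammonium from asparagine, had 2.77, 1.99, 0 and 1.54 CPM in the *dog1-3* NaCl libraries, against 9.06, 10.2, 8.43 and 11.4 CPM in WT NaCl. It had 11.1, 9.69, 8.53 and 5.72 CPM in *dog1-3* mock, against 48.0, 42.4, 43.2 and 32.2 CPM in WT mock. WT NaCl and *dog1-3* mock overlapped, and NaCl was below mock in every library of both genotypes. The 0 in *dog1-3* NaCl is a count of 0, which allows up to 3 counts or 1.65 CPM in that library, counting error only. *PROT1* (AT2G39890), a transporter of proline, averaged 4.58 ± 1.29 CPM in *dog1-3* NaCl and 27.1 ± 5.04 CPM in WT NaCl, and 14.4 ± 0.838 CPM in *dog1-3* mock and 70.8 ± 5.13 CPM in WT mock (SD, n = 4 each). *G3Pp1* (AT3G47420), annotated as a putative glycerol-3-phosphate transporter, averaged 3.33 ± 1.58 CPM in *dog1-3* NaCl and 15.9 ± 4.18 CPM in WT NaCl, and 5.29 ± 2.77 CPM in *dog1-3* mock and 22.9 ± 5.48 CPM in WT mock (SD, n = 4 each).

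Enzymes of specialised and lipid metabolism included *CYP71B2* (AT1G13080), a cytochrome P450. It had 2.77, 1.99, 0.548 and 2.32 CPM in the *dog1-3* NaCl libraries, against 18.1, 14.0, 3.94 and 17.8 CPM in WT NaCl. It had 14.2, 9.69, 6.25 and 7.80 CPM in *dog1-3* mock, against 65.9, 54.9, 52.4 and 51.5 CPM in WT mock. NaCl was below mock in every library of both genotypes, and WT NaCl replicate 3 lay lower than the other WT NaCl libraries. *IGMT5* (AT1G76790), which methylates indole glucosinolates, averaged 2.09 ± 1.77 CPM in *dog1-3* NaCl and 14.4 ± 4.61 CPM in WT NaCl, and 4.37 ± 0.799 CPM in *dog1-3* mock and 22.0 ± 9.67 CPM in WT mock (SD, n = 4 each). *ARAB-1* (AT1G28670), of the GDSL lipase family, averaged 0.732 ± 0.848 CPM in *dog1-3* NaCl and 6.76 ± 2.80 CPM in WT NaCl, and 2.84 ± 1.91 CPM in *dog1-3* mock and 19.2 ± 2.30 CPM in WT mock (SD, n = 4 each). AT1G75960, of the family of AMP-dependent synthetases and ligases, averaged 1.62 ± 0.396 CPM in *dog1-3* NaCl and 12.7 ± 3.37 CPM in WT NaCl, and 2.83 ± 0.705 CPM in *dog1-3* mock and 16.3 ± 3.14 CPM in WT mock (SD, n = 4 each). All 4 genes kept the genotypes apart within each treatment. *NUDT17* (AT2G01670), a nudix hydrolase, had 4.15, 1.33, 1.097 and 3.86 CPM in the *dog1-3* NaCl libraries, against 22.4, 17.7, 15.7 and 19.7 CPM in WT NaCl. It had 4.22, 4.10, 3.41 and 2.08 CPM in *dog1-3* mock, against 20.1, 21.7, 21.7 and 21.0 CPM in WT mock. Its treatments overlapped within both genotypes, and the genotypes differed by -2.57 in NaCl and -2.34 in mock.

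The remaining 2 lower members belong to families that act in protein ubiquitination. AT2G32560, of the F-box family, had 0.923, 0.665, 1.65 and 0.772 CPM in the *dog1-3* NaCl libraries, against 7.63, 9.78, 10.7 and 8.88 CPM in WT NaCl. It had 3.17, 4.85, 6.25 and 5.72 CPM in *dog1-3* mock, against 28.3, 32.3, 30.9 and 27.6 CPM in WT mock. Its 4 groups did not overlap, with differences of -2.37 in NaCl and -2.39 in mock. AT5G43420, of the RING/U-box superfamily, had 0.462, 1.33, 0 and 0 CPM in the *dog1-3* NaCl libraries, against 3.34, 6.52, 3.94 and 7.90 CPM in WT NaCl. It had 0.528, 1.86, 0.568 and 0.520 CPM in *dog1-3* mock, against 7.82, 8.43, 7.17 and 8.79 CPM in WT mock. The *dog1-3* NaCl libraries held 3 counts together, against 44 in WT NaCl, a level 12.4-fold lower with an exact counting interval of 3.97 to 62.3. Its counts of 0 allow up to 1.65 CPM in replicate 3 and 2.32 CPM in replicate 4 (3 counts).

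**Figure D3:**
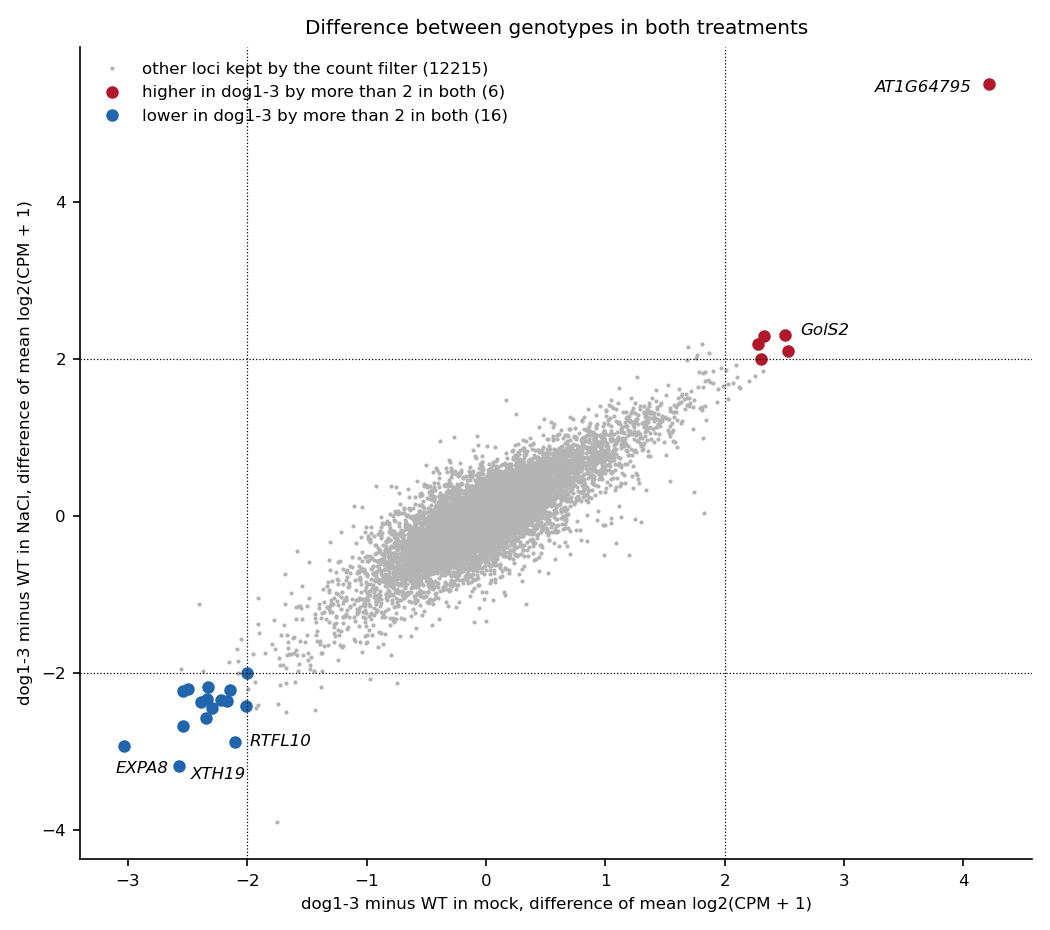
Genotype difference (*dog1-3* minus WT, mean log2(CPM + 1)) in NaCl against that in mock for the 12237 kept loci, grey, with the 6 higher and 16 lower members coloured and the limits of 2 and -2 dotted. AT1G64795 stands apart from the other members at 5.51 in NaCl and 4.21 in mock, whereas the other higher members lie between 2.01 and 2.53.

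Members just inside the limit of 2 lay close to loci just outside it. On the higher side the members with the smallest difference were *COR413-PM1* (2.01 in NaCl and 2.31 in mock), *CYP709B2* and AT3G21380, and the nearest loci outside were AT1G14950 (1.93 in NaCl and 2.10 in mock), *TT7* (1.89 in NaCl and 1.97 in mock) and the albumin gene *SESA2* (2.07 in NaCl and 1.87 in mock). On the lower side they were *G3Pp1* (just past the limit in both), *IGMT5* (-2.41 in NaCl and -2.01 in mock) and *RTFL10* (-2.88 in NaCl and -2.10 in mock), against AT3G54400 (just short of the limit in NaCl and -2.07 in mock), *EXPA1* (-2.20 in NaCl and -1.99 in mock) and AT1G16635 (-1.98 in NaCl and -2.37 in mock) outside.

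The rule says nothing about the response to salt, which was measured in the same libraries. It was tested as the treatment term, NaCl against mock, of an edgeR quasi-likelihood model with additive genotype and treatment terms over all 16 libraries, with Benjamini-Hochberg adjustment, and a gene was called where its change exceeded 1.5-fold at an adjusted p under 0.05. NaCl lowered 10 of the 16 lower members and raised 0 of them, against 7.27% lowered and 8.41% raised among the 12697 genes tested. At the adjusted p alone 13 of 16 were lowered (22.8% of all genes) and 0 raised (24% of all genes). The fitted change was below 0 in 6500 of the 12697 genes tested and in all 16 lower members. Their median log2 fold change was -0.81, against -0.01 over all genes tested. Of the 6 higher members 0 were called in either direction, with a median of 0.08. With library size as the only scaling the median over all genes was -0.16, 636 genes were raised and 1693 lowered in place of 1068 raised and 923 lowered, and 13 of the 16 lower members and 0 higher members were called as lowered (13.3% of all genes).

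**Figure D4:**
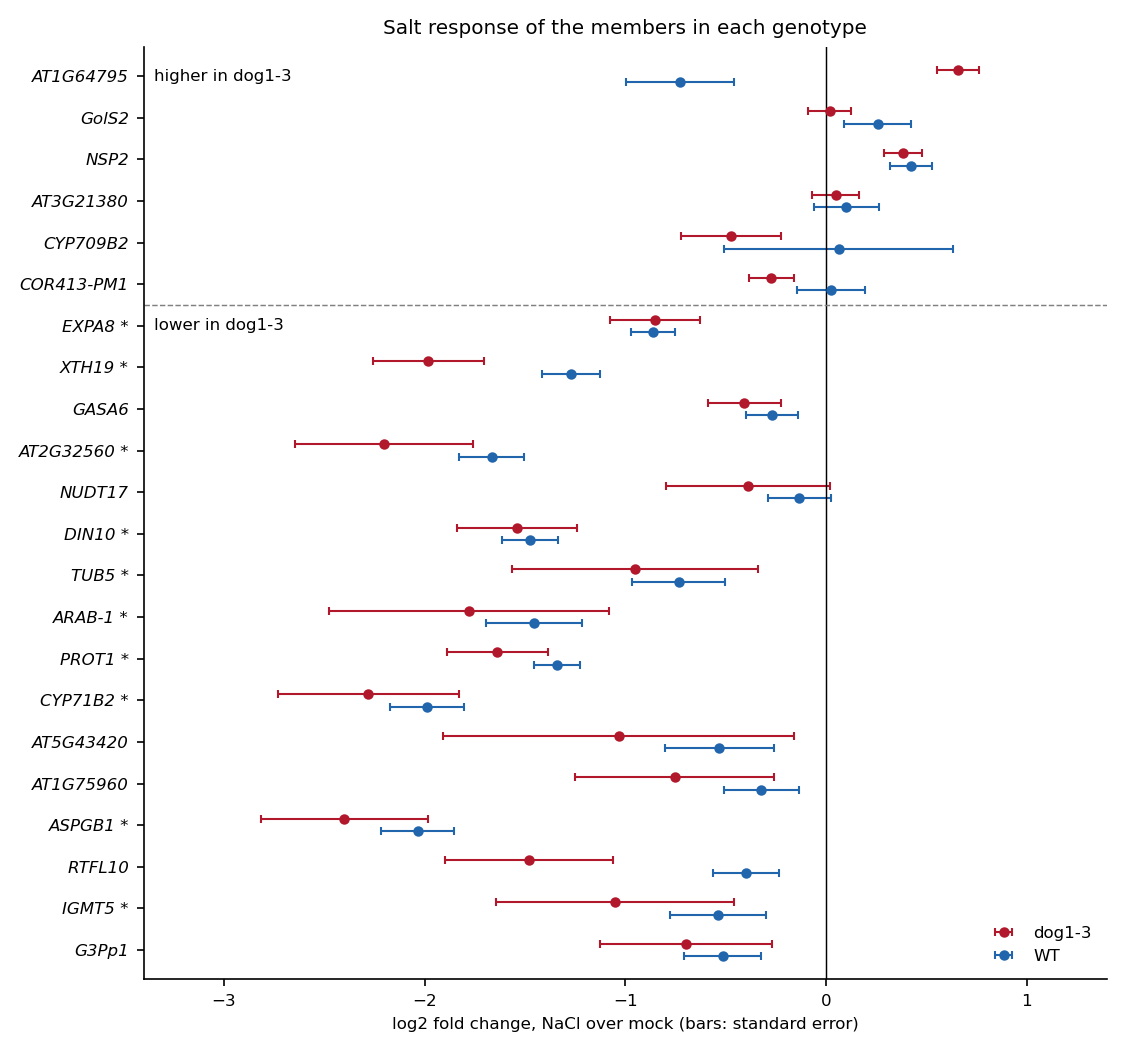
Log2 fold change of NaCl over mock within *dog1-3* and within WT for the 22 members, from the edgeR fit with 4 group means, with bars of 1 standard error (SE), and an asterisk at the 10 members called in the additive salt test. All 16 members lower in *dog1-3* lie below 0 in both genotypes, with medians of -1.27 in *dog1-3* and -0.80 in WT. Of the 12697 genes tested, 6584 were below 0 in *dog1-3* and 6374 in WT.

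In the quasi-likelihood test of edgeR, *ASPGB1* had the largest fall, with a salt log2 fold change of -2.09 (SE 0.17, adjusted p = 3.84e-13). It was followed in the edgeR fit by *CYP71B2* at -2.03 (SE 0.17, adjusted p = 1.94e-12) and AT2G32560 at -1.73 (SE 0.15, adjusted p = 6.11e-12). For these 3 genes all NaCl libraries lay below all mock libraries of the same genotype, 4 of 4 in *dog1-3* and 4 of 4 in WT. The other falls were log2 fold changes of -1.49 for *ARAB-1* and *DIN10*, -1.42 for *XTH19*, -1.39 for *PROT1*, -0.86 for *EXPA8* and -0.76 for *TUB5*, with edgeR adjusted p between 1.04e-13 (*PROT1*) and 0.00358 (*TUB5*). *TUB5* was not called in a test against the 1.5-fold limit itself (edgeR's glmTreat, adjusted p = 0.751) or within *dog1-3* alone (-0.95, adjusted p = 0.259), and *ARAB-1* missed the threshold within *dog1-3* alone (-1.78, adjusted p = 0.0514).

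*IGMT5*, called by the edgeR test at -0.61 (SE 0.22, adjusted p = 0.0223), depended on the fit and on single libraries. In the edgeR test with the replicate number as a block, *IGMT5* stood at -0.64 (SE 0.16, adjusted p = 0.000943). With no filter beyond a count above 0, *IGMT5* stood at -0.63 (adjusted p = 0.000545 in edgeR). It was not called by glmTreat (adjusted p = 1), nor by the edgeR contrast within *dog1-3* alone (-1.05, adjusted p = 0.191) or within WT alone (-0.54, adjusted p = 0.0753). Its call was lost without WT mock replicate 1 (-0.54, adjusted p = 0.0571), WT mock replicate 2 (-0.36, adjusted p = 0.158), WT NaCl replicate 3 (-0.56, adjusted p = 0.0550) or WT NaCl replicate 4 (-0.48, adjusted p = 0.0895), and without *dog1-3* NaCl replicate 3 (-0.57) or 4 (-0.58) the change fell short of 1.5-fold. Of the 6 lower members not called, *RTFL10* (-0.55, adjusted p = 0.00546), *G3Pp1* (-0.55, adjusted p = 0.00971) and *GASA6* (-0.31, adjusted p = 0.0139) passed the adjusted p of the edgeR test but not the 1.5-fold limit. *RTFL10* crossed that limit without WT mock replicate 3 (-0.66) or 4 (-0.63) and without WT NaCl replicate 2 (-0.63) or 4 (-0.66). It was also called with library size alone as the scaling (-0.67), by DESeq2 (-0.68), as the average of the salt contrasts of both genotypes (-0.94) and within *dog1-3* alone (-1.48). *G3Pp1* crossed the limit without WT mock replicate 1 (-0.64) and without WT NaCl replicate 2 (-0.68) or 4 (-0.60), with library size alone (-0.67) and as the average of both contrasts (-0.61). AT5G43420 (-0.57, adjusted p = 0.0658), AT1G75960 (-0.37, adjusted p = 0.0737) and *NUDT17* (-0.17, adjusted p = 0.364) missed the adjusted p of the edgeR test, although AT5G43420 was called without WT NaCl replicate 4 (-0.79, adjusted p = 0.0249) and with library size alone (-0.70, adjusted p = 0.0248).

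Among the higher members *NSP2* (0.40, SE 0.07, adjusted p = 9.00e-06) and AT1G64795 (0.46, SE 0.12, adjusted p = 0.00252) passed the adjusted p of the edgeR test with less than a 1.5-fold change. AT1G64795 did not pass it with library size alone (0.29, adjusted p = 0.0536), in DESeq2 (0.10, adjusted p = 0.824) or as the average of the edgeR contrasts of both genotypes (-0.04, adjusted p = 0.857), where its sign turned. *GolS2* (0.09, adjusted p = 0.445), AT3G21380 (0.07, adjusted p = 0.593), *COR413-PM1* (-0.18, adjusted p = 0.121) and *CYP709B2* (-0.39, adjusted p = 0.159) did not pass it. AT1G64795 moved in opposite directions in the 2 genotypes, by 0.66 (SE 0.11, adjusted p = 8.19e-06 in edgeR's fit) in *dog1-3* and by -0.73 (SE 0.27, adjusted p = 0.0322 in the same fit) in WT, where it rested on 3.46 to 14.4 CPM.

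Within *dog1-3* the NaCl libraries lay wholly below the mock libraries in 9 of the 16 lower members, against 13.3% of kept loci, and within WT in 8 of 16, against 16.9%. Both held for 7 of 16, against 8.63%. No lower member had NaCl wholly above mock in either genotype (13.8% of kept loci in *dog1-3* and 15.3% in WT). The salt log2 fold change was lower in *dog1-3* than in WT for 15 of the 16, against 6795 of the 12697 genes tested. The median difference was -0.31, against -0.02 over all genes tested. It was also lower in *dog1-3* for 5 of the 6 higher members, with a median difference of -0.15. Among the lower members, *RTFL10* (-1.48 in *dog1-3* and -0.40 in WT) and *XTH19* (-1.98 in *dog1-3* and -1.27 in WT) had the largest such differences. They came to -1.08 (SE 0.46) for *RTFL10* and -0.71 (SE 0.33) for *XTH19*. Others lay within their SE, as for *ASPGB1* (-0.37, SE 0.49), *DIN10* (-0.07, SE 0.32) and *TUB5* (-0.22, SE 0.63). On the log2(CPM + 1) scale of the rule, the genotype difference was wider in NaCl than in mock for only 9 of the 16 lower members. These values were not tested, because the rule requires the genotypes to be far apart in both treatments. The 4 *dog1-3* mock libraries lay below the 4 WT NaCl libraries in 13 of the 16 lower members (15.2% of kept loci) and above them in 6 of 6 higher members (16.4% of kept loci), values that the rule on the genotypes largely sets.

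The families of the members were counted from lists of related genes, leaving out the members themselves, with the same edgeR test and limits. Of 8 other alpha-expansins tested, *dog1-3* was lower than WT for 5 in NaCl and 6 in mock and higher for 0, against 7.57% lower and 8.15% higher in NaCl and 8.44% lower and 9.94% higher in mock among all genes. *EXPA10* averaged 342 ± 32.9 CPM in *dog1-3* NaCl and 1066 ± 152 CPM in WT NaCl (SD, n = 4 each), and *EXPA1* 115 ± 11.8 CPM and 537 ± 84.8 CPM. NaCl lowered 5 of these 8 and raised 0, and their median salt log2 fold change was -0.77. No other xyloglucan endotransglucosylase was called lower in *dog1-3*: of 8 tested, 2 were higher in *dog1-3* in NaCl and 3 were higher in mock. In mock, however, 2 were higher with the RLE factors, and 2 were higher and 1 lower with library size alone. NaCl lowered 2 of these 8 and raised 0, with 3 lowered under library size alone. The 2 were *XTH15* (-3.08) and *XTH16* (-3.02, with group means of only 0.445 to 4.83 CPM). *XTH25* averaged 649.6 ± 118 CPM in *dog1-3* NaCl and 247 ± 40.4 CPM in WT NaCl (SD, n = 4 each). Likewise *GASA2* averaged 723 ± 69.6 CPM in *dog1-3* NaCl and 201 ± 37.8 CPM in WT NaCl (SD, n = 4 each), and of 3 other GASA genes tested 2 were higher in both treatments and 1 was lower in mock. NaCl lowered 1 of these 3, AT5G14920 (-1.81), and raised 0. The 5 other beta-tubulins were called in neither genotype contrast nor in the salt test (with library size alone as the scaling, NaCl lowered 1), their genotype log2 fold changes lying between -0.36 and 0.40.

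Genes of galactinol and raffinose metabolism were called in opposite directions. The galactinol synthase *GolS1* was higher in *dog1-3* by 1.03 in NaCl and 1.23 in mock on the log2 scale (edgeR adjusted p = 2.45e-09 and 6.51e-12), in the direction of *GolS2*. The raffinose synthase family genes *SIP1* (AT1G55740, -1.19 in NaCl and -1.16 in mock) and *SIP2* (-0.73 in NaCl and -0.63 in mock) were lower in the same edgeR contrasts, in the direction of *DIN10*. The raffinose synthase family gene AT5G40390, which carries the same symbol *SIP1*, was not among the genes tested. NaCl raised *SIP2* by 0.62 (adjusted p = 4.34e-09 from edgeR's salt test), whereas it lowered *DIN10*. With library size alone as the scaling the change of *SIP2* (0.48) fell short of 1.5-fold. Of 2 other cold-regulated genes tested, *LTI78* was higher in *dog1-3* by 1.01 in NaCl and 1.11 in mock, and *COR413-PM2* was not called. *NSP5*, the only other gene tested of the list of nitrile specifier proteins, was higher in mock (0.95) and not called in NaCl (0.21), a difference that was not tested. The other proline transporter tested, *PROT2*, was called in no contrast. Lists without a member gave 2 of 5 genes taken by a flavonoid *TT* name or synonym higher in both treatments (*F3H* and *TT7*). These 5 include *UGT80B1*, of a UDP-glycosyltransferase family, and AT3G28430, a CLEC16A-like protein, which were called in no contrast. Of 9 purple acid phosphatases 1 was higher and 3 were lower in both treatments, 3 of the 9 being lowered by salt. The higher one, *PAP18*, was not called with library size alone as the scaling (0.47 in NaCl and 0.51 in mock).

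Along the chromosomes the members were spread without close groups. Chromosomes 1 to 5 held 8, 7, 4, 1 and 2 members, against 26.0%, 14.9%, 20.1%, 15.2% and 23.8% of the kept loci. The higher members lay on chromosomes 1 (2), 2 (3) and 3 (1), and the lower members on chromosomes 1 (6), 2 (4), 3 (3), 4 (1) and 5 (2). Of 17 pairs of members that follow each other on a chromosome, 0 were within 500 locus numbers, the distance taken to define a group, and 3 were within 1000. These were AT2G32560 with *NSP2*, of opposite sign, 510 numbers apart with 21 kept loci between them, *PROT1* with *EXPA8*, 720 apart with 45 between, and AT1G75960 with *IGMT5*, 830 apart with 41 between. The nearest member to *DOG1* was AT5G43420, 2410 numbers away, and none of the 78 kept loci within 1000 numbers of *DOG1* was a member. Of these 78, 3.85% differed by more than 1 between the genotypes with the same sign in both treatments, against 3.46% of all kept loci.

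**Figure D5:**
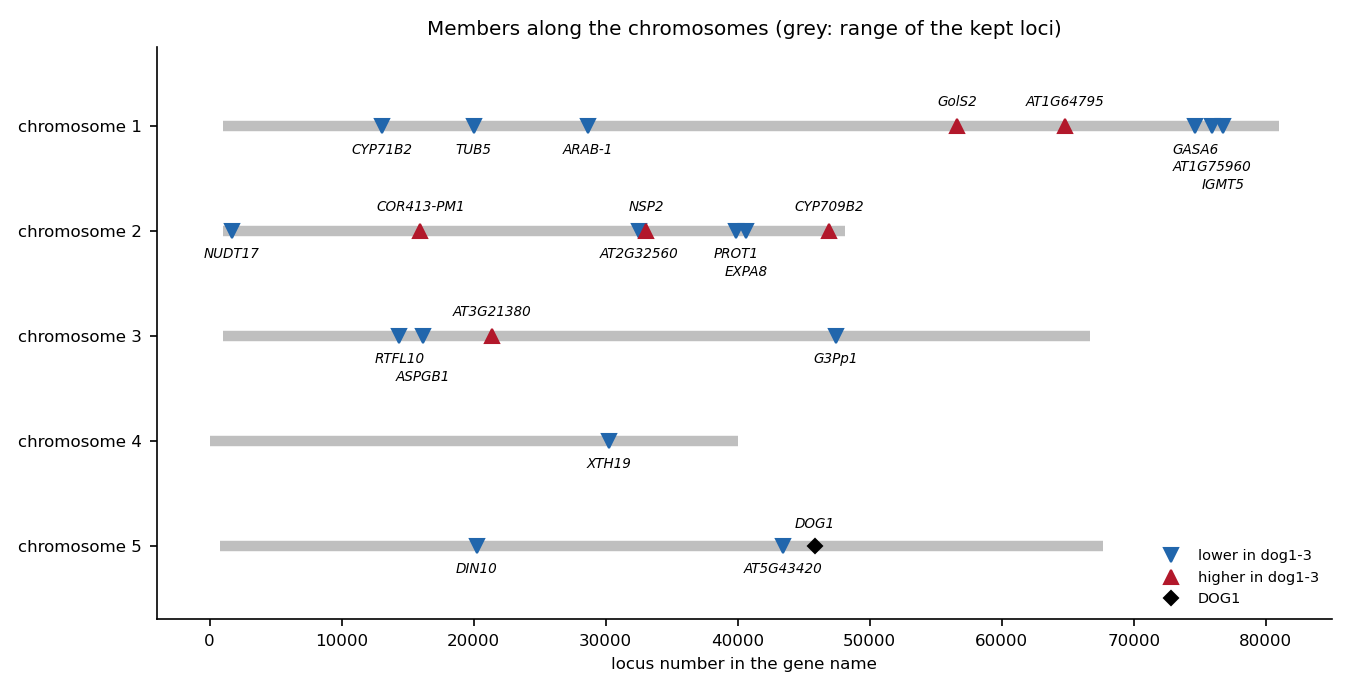
Position of the 22 members by locus number on each of the 5 chromosomes, with the range of the kept loci as grey bars and *DOG1* as a black diamond; red triangles are higher and blue triangles lower in *dog1-3*. Chromosome 1 holds 8 members and chromosome 2 holds 7, no pair lies within 500 locus numbers, and the member nearest to *DOG1* is 2410 numbers away.

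The loci beside the members were read for the same difference. Of the 24 kept loci that were the nearest 2 on each side of a higher member, 1 differed by more than 1 in the same direction in both treatments: *BGLU19*, beside AT3G21380, by 1.26 in NaCl and 1.57 in mock. That is 4.17%, against 1.93% of all kept loci. Of the 64 beside lower members 3 did, 4.69% against 1.54% of all kept loci, and neither share was tested. AT1G28660 (-1.62 in NaCl and just past the same limit in mock) and AT1G28680 (-1.64 in NaCl and -1.23 in mock) flank *ARAB-1*, and AT1G20015 (-1.42 in NaCl and -1.27 in mock), annotated as a small nucleolar RNA, lies beside *TUB5*. The median absolute difference of the neighbours was 0.30 in NaCl and 0.25 in mock for the higher members and 0.31 and 0.27 for the lower members, against 0.26 in both treatments over all kept loci. In the last 300 bases of each member's first annotated transcript (201 for AT1G64795), none of the stretches of 50 bases occurred more than once in the 5 chromosomes.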

How the data were processed

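The data are 3'RNA-seq profiles of 16 libraries of *dog1-3* and WT seeds in NaCl or mock, grouped and numbered by their labels. The authors deposited unnormalized read counts per locus for each library. Per the processing notes of the submitters, reads were aligned with STAR 2.7.8a to TAIR10 and DESeq2 was used. The counting program, its use of strand and the handling of molecular identifiers are not given in the sources used here. The 4 libraries of a group are replicates by label, and where they do not come from separate seed batches the p-values measure only technical spread. No libraries of a group were copies, the chi-square per degree of freedom of their counts being 1.51 to 6.16.

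From the deposited counts, TMM factors, log2(CPM + 1) with a pseudocount of 1 and the group means were obtained in R 4.3.3 (edgeR 4.0.16). Loci with a mean of 10 or more counts were kept, *DOG1* was left out, and members were taken at differences past 2 or -2 in both treatments. Salt and genotype tests used edgeR's quasi-likelihood test on 12697 genes past filterByExpr (minimum count 10), with Benjamini-Hochberg adjustment, called at an adjusted p under 0.05 and over 1.5-fold. The salt test had additive genotype and treatment terms, and values within a genotype came from a fit with 4 group means. Each SE was worked back from the test, as the absolute log2 fold change over the square root of its F statistic. Scripts were tested on simulated data. DESeq2 1.42.0, other scalings, filters, limits, the replicate number as a block and each library left out were alternatives. Names and sequences came from RefSeq's TAIR10.1 genome and annotation, in which 37051 of 37336 loci were found; windows of 250 bases were cut upstream of annotated starts in place of a promoter table. Per-library values are given for every higher member, for the 6 lower members with the largest differences and for the 3 largest falls in salt, and also for AT5G43420, chosen for its low counts after its values were seen. The members and gene lists were chosen with earlier results of these data known. Intervals and limits from counts cover counting error only.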

Additional observations from a re-analysis of the deposited data

Results flagged for a closer look

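A single library stood apart from the other 3 of its group, by Dixon's ratio of its gap to the range of the group at the 95% level, in 3 of the 88 groups of 4 values given by the 22 members, and chance alone flags about 1 in 20 groups. *TUB5* had 18.3 CPM in WT NaCl replicate 4, against 7.31 to 8.38 CPM in the other WT NaCl libraries. *ARAB-1* had 15.8 CPM in WT mock replicate 3, against 20.0 to 20.7 CPM in the others. AT5G43420 had 1.86 CPM in *dog1-3* mock replicate 2, against 0.520 to 0.568 CPM in the others, which are values of 1 count each. The genotypes of these 3 genes did not overlap with all libraries in, so leaving out the library named could not make them overlap.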

How the results depend on the processing

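The number of members moved with the choices behind the rule. With library size alone as the scaling it was 3 higher and 25 lower, where the median over all genes was -0.25 in NaCl and -0.18 in mock (-0.02 and -0.01 with TMM); with a pseudocount of 2, 4 higher and 6 lower; with a limit of 1.5, 43 higher and 59 lower; with log2 fold changes of the edgeR fit, 10 higher and 25 lower. Other filters, scalings, a pseudocount of 0.5 and group medians gave 5 or 6 higher and 14 to 22 lower. Leaving out 1 library gave 4 to 8 higher, 4 to 6 of them shared with the 6, and 12 to 19 lower, 12 to 16 of them shared with the 16; the lowest count of lower members came without WT mock replicate 2. A distance of 1000 locus numbers gave 3 neighbouring pairs in place of 0.

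Salt lowered 8 to 13 of the 16 lower members under the 11 alternatives and 9 to 12 without 1 library, and raised 0 in each. Among the higher members, 2 were raised at the adjusted p alone and 1 within *dog1-3* alone, and 1 was lowered within WT alone, AT1G64795 (-0.73), whose direction reversed there. With the replicate number as a block shared by both genotypes, the same 10 lower members were called and no call changed. A block within each genotype was not fitted. Deviations of same-numbered libraries were at most weakly correlated (r between -0.06 and 0.10 in 24 pairs, against -0.13 to 0.09 in 72 pairs of unlike number). Mock and NaCl libraries of the same number within a genotype all had a positive r. It was 0.03 to 0.10 in WT and 0.004 to 0.05 in *dog1-3*. These values do not settle whether the numbers pair the samples within a genotype. The counts of related genes under 2 other scalings were chosen after seeing the data. With library size alone or the RLE size factors the direction of the called alpha-expansins did not turn, with 5 or 6 lower in NaCl and 6 lower in mock. Depth limited the members with few counts, since 1 count was worth up to 0.772 CPM.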
